A study of Mus musculus with 4 samples.

Results

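Transcript levels of 10 chemokine ligand genes were followed in 4 SMART-seq libraries of CD8 T cells sorted from mouse tumours, in which 45773 genes were listed. The members were chosen by gene symbol. They were Ccl1, Ccl3, Ccl4, Ccl5 and Xcl1, which activated CD8 T cells are known to make, and Ccl2, Cxcl2, Cxcl9, Cxcl10 and Cxcl16, which are better known from macrophages and stromal cells. All 10 were listed above 0 in each library, and all 10 were among the 12570 genes called measured, those whose mean level was 1 TPM or more. TPM is a read density that is divided by transcript length and scaled to a fixed total per library, so levels of different genes can be set side by side within a library.

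The libraries came from 2 experiments. In the gain experiment, CD8 T cells of Pmel-I mice, whose transgenic T cell receptor recognises the melanocyte protein gp100, were transduced either with the retroviral vector MigRI or with Klf4, and were given intravenously on day 7 to Rag2 KO mice bearing MC38-gp100 tumours. MC38 is a mouse colon carcinoma line, and Rag2 KO hosts lack T and B cells of their own but keep macrophages, neutrophils and stroma. GFP+ CD8 T cells were sorted from these tumours on day 15. In the loss experiment, MC38 tumours grew in Control (WT) and Klf4 cKO mice, and their PD1+ CD8+ tumour-infiltrating lymphocytes (TILs) were sorted on day 14. Each tumour began with 300000 injected cells. Each library was made from 10000 to 20000 sorted T cells. The sources used here do not give the Cre driver of the cKO, the ages or the number of mice per library. With 1 library in each group, differences have no replicate check, no test was possible and no p-value is given.

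Chemokines are small secreted proteins that bind G protein-coupled receptors and draw leukocytes along gradients. They are classed by the spacing of their first cysteines into CC, CXC, C and CX3C types. In CD8 T cells, receptor stimulation is known to induce Ccl3, Ccl4, Xcl1 and Ccl1, while Ccl5 is stored and made by effector and memory cells. Interferon gamma from T cells is in turn known to induce Cxcl9 and Cxcl10 in macrophages, dendritic cells and stroma, and these ligands recruit T cells that carry the receptor Cxcr3.

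Read depth cannot be recovered from TPM, so it is unknown and counting intervals are not given. Between 10542 and 13170 genes were at 1 TPM or more in a library. Klf4 itself was at 8.69 TPM in MigRI, 26.0 TPM with Klf4, 7.52 TPM in Control (WT) and 9.28 TPM in the Klf4 cKO-labelled library, so its level does not check the last label, and directions drawn from that library rest on the label. All 10 T cell markers of a fixed list, Cd3d, Cd3e, Cd3g, Cd8a, Cd8b1, the receptor constant genes Trac, Trbc1 and Trbc2, Cd2 and Lck, were at 1 TPM or more in every library. The 3 CD4 T cell markers summed to 2.08 TPM in MigRI, 1.57 TPM with Klf4, 11.4 TPM in Control (WT) and 4.86 TPM in the Klf4 cKO-labelled library. Cd4 itself was below 1 TPM in each, and Foxp3 and Cd40lg were at 4.64 and 5.95 TPM in Control (WT). The median difference of log2(TPM + 1) over the measured genes was 0.79 for Klf4 over MigRI and 0.74 for the Klf4 cKO-labelled library over Control (WT). Differences are therefore given both on the deposited scale and after subtracting this median. Klf4 itself differed by 1.48 log2 for Klf4 over MigRI as deposited and by 0.69 relative to the median gene. Relative to genes in its transcript length class it differed by 0.13, so its level does not check the Klf4 label on every scale. A difference of at least 1 log2, which is 2-fold, is counted as higher or lower. By this rule all 10 T cell markers were lower with Klf4, on the deposited scale and also after the median was subtracted. Of all measured genes, 10.3% and 23.6% were lower on these scales. In the Klf4 cKO-labelled library 8 markers were higher and 0 lower on the deposited scale, and 5 and 1 after subtraction. The shares of all measured genes there were 38.4% and 6.92%, and 12.4% and 16.2%. The T cell marker sums were 24626 TPM in MigRI, 5813 TPM with Klf4, 7972 TPM in Control (WT) and 18556 TPM in the Klf4 cKO-labelled library.

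In the gain experiment the members parted by group. The 5 T cell chemokines were all lower in the Klf4-transduced library than in MigRI, by 0.55 to 2.12 log2, and the other 5 were all higher, by 1.17 to 3.35 log2, though relative to the receptor constant genes Trac, Trbc1 and Trbc2, themselves lower with Klf4, Ccl3, Ccl4, Ccl5 and Xcl1 turned to 1.46, 1.42, 1.45 and 0.47. At the 2-fold threshold, 5 of the 10 members were higher and 2 were lower. Over all measured genes, 43.7% were higher and 10.3% were lower by the same rule. Relative to the median gene, 4 members were higher and 5 were lower, against 21.4% and 23.6% of measured genes. These counts describe 1 library against 1. The 10 T cell markers were all lower in the same comparison, by 1.48 to 4.43 log2 on the deposited scale. Ccl3, Ccl4 and Ccl5 were lower by less than any of these markers.

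**Figure D1:**
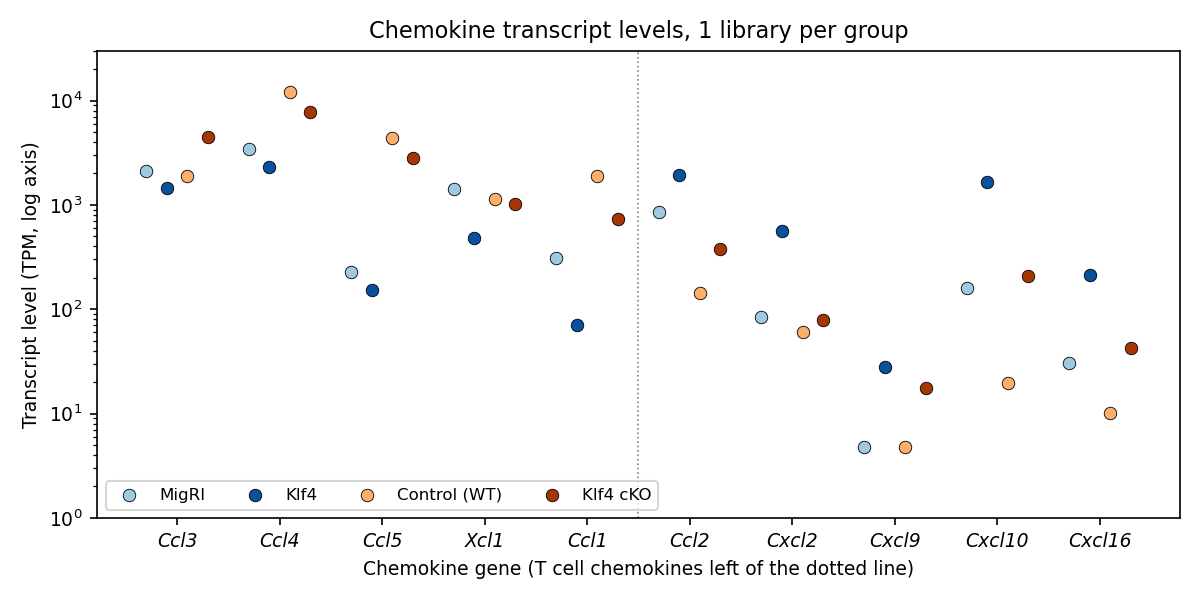
TPM of the 10 chemokine genes (log axis) in the 4 libraries, 1 point per library. The Klf4-transduced library has the lowest of the 4 points for Ccl1, Ccl3, Ccl4, Ccl5 and Xcl1, left of the dotted line, and the highest for Ccl2, Cxcl2, Cxcl9, Cxcl10 and Cxcl16.

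Ccl3 and Ccl4, the macrophage inflammatory proteins that attract monocytes and T cells, were the most abundant T cell chemokines in the gain experiment. Their genes lie side by side on mm10 chromosome 11, Ccl3 from 83647844 to 83649355 on the minus strand and Ccl4 from 83662584 to 83664683 on the plus strand, and their principal transcripts have 3 exons each. Ccl3 was at 2107 TPM in MigRI, 1436 TPM with Klf4, 1873 TPM in Control (WT) and 4430 TPM in the Klf4 cKO-labelled library. Ccl4 was at 3463, 2291, 11972 and 7789 TPM in the same order. Ccl3 was thus highest in the Klf4 cKO-labelled library, and Ccl4 was highest in Control (WT), where 4 genes in the whole library stood above it (rank 5). The difference of log2(TPM + 1) for Klf4 over MigRI was -0.55 for Ccl3 and -0.60 for Ccl4 as deposited, with -1.35 and -1.39 once the median gene is subtracted.

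Ccl5, or RANTES, a ligand of Ccr1 and Ccr3, lies on chromosome 11 from 83525778 to 83530518 on the minus strand. It was at 227 TPM in MigRI, 153 TPM with Klf4, 4330 TPM in Control (WT) and 2785 TPM in the Klf4 cKO-labelled library. Both endogenous PD1+ libraries were above both Pmel-I libraries, but the experiments differ in host, T cell source, sort and day, so these levels are listed together and no difference is taken. Within the gain experiment its log2 difference was -0.57 as deposited, with -1.36 once the median gene is subtracted, close to the values of Ccl3 and Ccl4.

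Xcl1 (lymphotactin), the C-type chemokine that attracts cross-presenting dendritic cells through Xcr1, lies on chromosome 1 from 164931644 to 164935527 on the minus strand. It was at 1419 TPM in MigRI, 485 TPM with Klf4, 1130 TPM in Control (WT) and 1030 TPM in the Klf4 cKO-labelled library. As deposited, Xcl1 was 2.93-fold lower with Klf4 than in MigRI, while the 2 libraries of the loss experiment differed 1.10-fold. Relative to the median gene its log2 differences in the gain and loss experiments were -2.34 and -0.87. Relative to the receptor constant genes they were 0.47 and -1.89, so this contrast depends on the scale. Ccl1, the ligand of Ccr8, lies on chromosome 11 from 82176657 to 82305690 on the minus strand, where a processed transcript without a coding sequence reaches far upstream of the coding ones. It was at 310 TPM in MigRI, 70.5 TPM with Klf4, 1879 TPM in Control (WT) and 725 TPM in the Klf4 cKO-labelled library. Ccl1 and Xcl1 had the most negative differences of the 10 members for Klf4 over MigRI, -2.12 and -1.55 log2 as deposited, and were the 2 members counted as lower.

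Among the other members, Cxcl10 showed the largest differences in either experiment. Cxcl10 (IP-10), an interferon-induced ligand of Cxcr3, lies on chromosome 5 from 92346638 to 92348889 on the minus strand. It was at 161 TPM in MigRI, 1660 TPM with Klf4, 19.5 TPM in Control (WT) and 210.1 TPM in the Klf4 cKO-labelled library. That is 10.3-fold higher with Klf4 than in MigRI, which moved it from rank 1065 to rank 61 in the library, and 10.8-fold higher in the Klf4 cKO-labelled library than in Control (WT). Its log2 differences were 3.35 and 3.36 as deposited, with 2.56 and 2.62 once the median gene is subtracted.

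Cxcl9 (MIG), the other interferon gamma-induced Cxcr3 ligand studied, lies beside it on chromosome 5 from 92321347 to 92328079. It had the lowest levels of the 10 members in all 4 libraries, at 4.77 TPM in MigRI, 27.8 TPM with Klf4, 4.73 TPM in Control (WT) and 17.4 TPM in the Klf4 cKO-labelled library. The log2 differences were 2.32 and 1.68 as deposited, with 1.53 and 0.94 once the median gene is subtracted, so that the second was below 2-fold on that scale. Cxcl16, a membrane-bound chemokine that is shed by Adam10 and Adam17 and binds Cxcr6, lies on chromosome 11 from 70453983 to 70459984 on the minus strand. It was at 30.7, 215, 10.1 and 42.4 TPM in the order MigRI, Klf4, Control (WT) and Klf4 cKO. Its log2 differences were 2.77 and 1.96 as deposited, with 1.98 and 1.23 once the median gene is subtracted. Cxcl16 overlaps Zmynd15 on the opposite strand, and reads of the 2 genes in the overlap cannot be told apart, since strand is not marked by the kit. Zmynd15 was listed at 4.13, 17.3, 3.30 and 4.20 TPM. Cxcl10 likewise overlaps Art3, which was below 1 TPM in every library, and Xcl1 overlaps Gm20743, listed at 0. Ccl2 overlaps Gm17268 on the opposite strand, for which no level was listed under that symbol.

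Ccl2 (MCP-1), which recruits monocytes through Ccr2, lies on chromosome 11 from 82035571 to 82037453 on the plus strand. It was at 862 TPM in MigRI against 1948 TPM with Klf4, and at 141 TPM in Control (WT) and 376 TPM in the Klf4 cKO-labelled library. Its log2 differences in the gain and loss experiments were 1.17 and 1.41 as deposited. Relative to the median gene they were 0.38 and 0.67, so both were below 2-fold on that scale. In the Klf4-transduced library Ccl2 stood at rank 45 of all genes, above Ccl3 at rank 75, whereas in the other 3 libraries Ccl3 was above Ccl2. Cxcl2 (MIP-2), a neutrophil attractant that binds Cxcr2, lies on chromosome 5 from 90903871 to 90905938 on the plus strand. It was at 84.8, 565, 61.0 and 79.0 TPM in the order MigRI, Klf4, Control (WT) and Klf4 cKO. The log2 difference of Cxcl2 was 2.72 in the gain experiment and 0.37 in the loss experiment, and relative to the median gene it was 1.93 and -0.37, so the sign of the second turned with the scaling.

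The T cell chemokines did not move together in the loss experiment. Ccl3 was 2.36-fold higher in the Klf4 cKO-labelled library than in Control (WT), a log2 difference of 1.24 as deposited, with 0.50 once the median gene is subtracted. Ccl4 and Ccl5 were lower there, at log2 differences of -0.62 and -0.64 as deposited, with -1.36 and -1.37 once the median gene is subtracted. Ccl1 was lower by both measures, with values of -1.37 and -2.11, and Xcl1 was at -0.13 and -0.87. The other 5 members were all higher as deposited, by 0.37 to 3.36 log2, though relative to the receptor constant genes Ccl2, Cxcl2 and Cxcl9 turned to -0.35, -1.39 and -0.076, as did Ccl3 to -0.52. In all, 5 of the 10 members were at least 2-fold higher and 1 was lower, against 38.4% and 6.92% of measured genes. Relative to the median gene 2 were higher and 3 were lower, against 12.4% and 16.2%. The 2 higher ones were Cxcl10 and Cxcl16, and the 3 lower ones were Ccl1, Ccl4 and Ccl5.

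**Figure D2:**
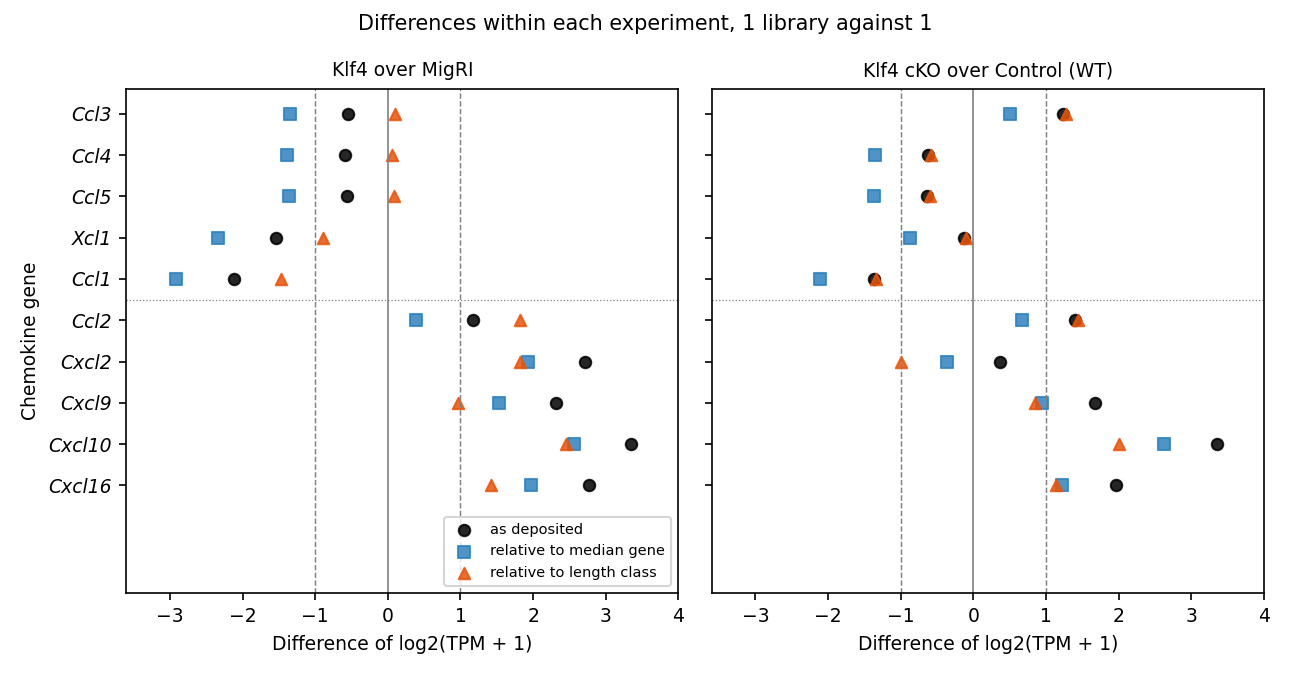
Difference of log2(TPM + 1) for each chemokine in the 2 experiments, as deposited (circles), relative to the median measured gene (squares) and relative to the median of genes in the same transcript length class (triangles), with 2-fold marked by dashed lines. The T cell chemokines above the dotted line lie below 0 in the left panel as deposited, while Ccl3 lies at 1.24 in the right panel.

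Summed over the 10 members, the level was nearly the same in MigRI and with Klf4, 8669 and 8851 TPM, but its make-up differed. A share within a library does not change when the whole library is multiplied by a factor, though quantile normalization, which is not such a scaling, can move shares and ratios. The T cell chemokines took 86.8% of the sum in MigRI and 50.1% with Klf4. In the latter library Ccl4 held 25.9%, Ccl2 22.0%, Cxcl10 18.8% and Ccl3 16.2%, whereas in MigRI Ccl4 held 40.0%, Ccl3 24.3%, Xcl1 16.4% and Ccl2 9.95%. The sums in the loss experiment were 21421 TPM in Control (WT) and 17485 TPM in the Klf4 cKO-labelled library, and the T cell chemokines took 98.9% and 95.9%. Ccl4 alone held 55.9% in Control (WT) and 44.5% in the Klf4 cKO-labelled library, and Ccl3 held 8.74% and 25.3%. Cxcl10 went from 0.0912% of the sum to 1.20%.

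**Figure D3:**
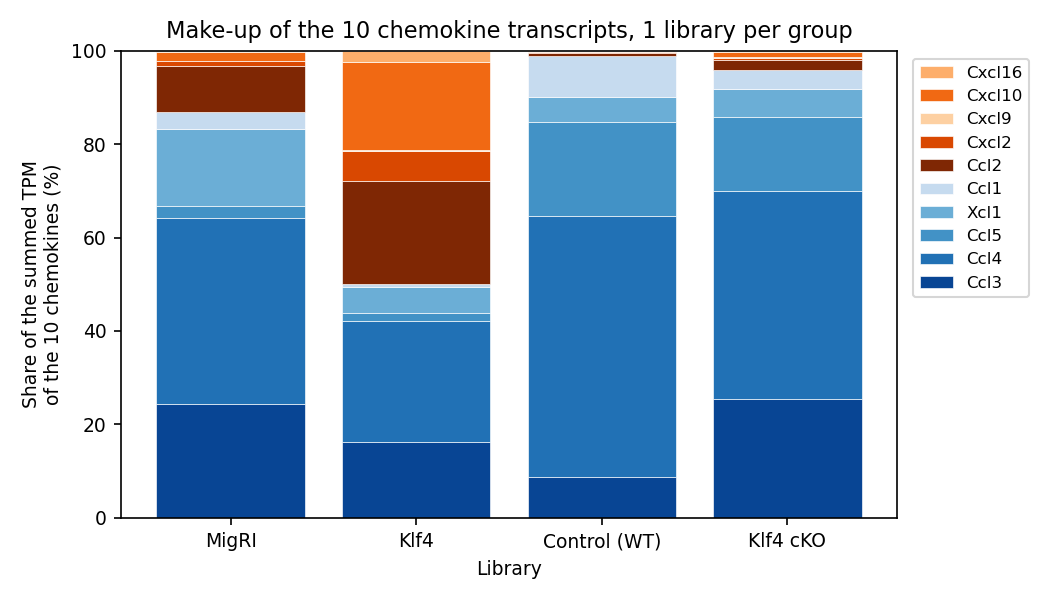
Share of the summed TPM of the 10 chemokines held by each gene (stacked bars, percent) in the 4 libraries, T cell chemokines in blue and the others in orange and brown. The blue part is 86.8% in MigRI, 50.1% with Klf4, 98.9% in Control (WT) and 95.9% in the Klf4 cKO-labelled library.

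Ratios between members within a library, which also do not move when the library is multiplied by a factor, showed which of them kept step. Ccl4 over Ccl3 was 1.64 in MigRI and 1.60 with Klf4, 1.76 in the Klf4 cKO-labelled library, and 6.39 in Control (WT). The Control (WT) library was thus the 1 that stood apart for this pair, with Ccl4 high against Ccl3. Ccl5 over Ccl4 was 0.0655 in MigRI and 0.0666 with Klf4, and 0.362 in Control (WT) and 0.358 in the Klf4 cKO-labelled library, so it was near constant within each experiment on the deposited values. Under quantile normalization the log2 differences of Ccl4 and Ccl5 for Klf4 over MigRI were -0.47 and -0.87, so the pair did not keep step there. Xcl1 over Ccl3 was 0.673 and 0.338 in the gain experiment and 0.603 and 0.233 in the loss experiment. Ccl1 over Ccl3 was 0.147 and 0.0491, and 1.00 and 0.164, and was lower in the second library of each pair. Cxcl10 over Cxcl9 was 33.9 in MigRI, 59.7 with Klf4, 4.13 in Control (WT) and 12.1 in the Klf4 cKO-labelled library. Without replicates, how much such a ratio varies between libraries of 1 group is unknown.

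**Figure D4:**
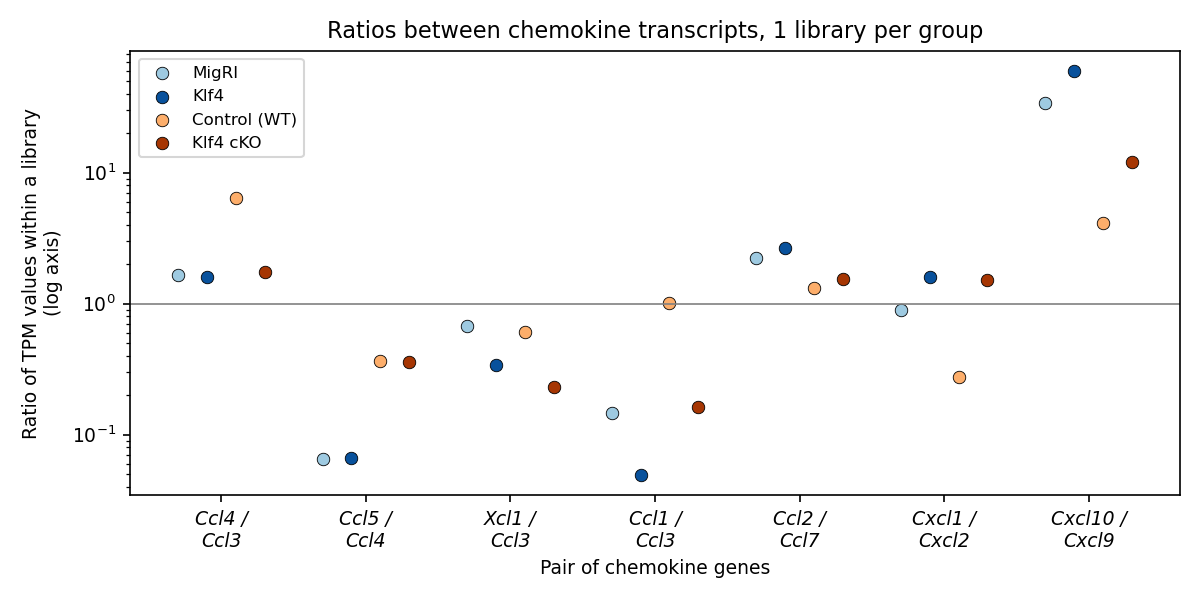
Ratios of TPM between pairs of chemokine genes within each library (log axis), 1 point per library. Ccl5 over Ccl4 pairs up by experiment, near 0.066 in the gain and near 0.36 in the loss experiment, and Ccl4 over Ccl3 is 6.39 in Control (WT) and between 1.60 and 1.76 in the other 3 libraries.

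The genes nearest to each member were found among 5033 candidates at 20 TPM or more in a library, by the larger of the gaps between their log2 differences in the 2 comparisons, which rest on 4 libraries. The gene nearest to Ccl4 was Ccl5, with a gap of 0.027 log2, followed by Med29 and Map1lc3b, and 38 genes lay within 0.25 log2 of Ccl4. Nearest to Cxcl10 were Sparc, Mgp and Npdc1, with gaps of 0.17 to 0.24 log2, and 4 genes lay within 0.25 log2 of it. Sparc and Mgp encode matrix proteins of stroma. Sparc was at 89.3, 821, 18.4 and 186 TPM in the order MigRI, Klf4, Control (WT) and Klf4 cKO. Nearest to Ccl1 were Ifitm1, Rasgrp2 and Atp5j, and 9 genes lay within 0.25 log2. Ccl2, by contrast, had 216 genes within 0.25 log2, among them Nras, Magt1 and Pqlc3 as the nearest, and Cxcl9 had 132.

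The promoters of 6 of the 10 members, Ccl1, Ccl3, Xcl1, Cxcl2, Cxcl9 and Cxcl10, were matched by symbol in RefSeq on GRCm38.p6, the assembly of mm10. The 250 bases before the annotated start are printed for Cxcl10 and Cxcl9, which were higher in both comparisons, for Ccl1, which was lower in both, and for Ccl3, which differed in sign between them. Each reads 5′ to 3′ on the strand of the gene, with matches to 5 motifs in capitals. The motifs were the interferon-stimulated response element core (TTTC, any 2 bases, TTTC), the GAS element TTCNNNGAA, the AP-1 site TGANTCA, the CACCC box that Kruppel-like factors can bind, and the kappaB site, searched on both strands.
Cxcl10 (chr5:92348890-92349139, minus strand): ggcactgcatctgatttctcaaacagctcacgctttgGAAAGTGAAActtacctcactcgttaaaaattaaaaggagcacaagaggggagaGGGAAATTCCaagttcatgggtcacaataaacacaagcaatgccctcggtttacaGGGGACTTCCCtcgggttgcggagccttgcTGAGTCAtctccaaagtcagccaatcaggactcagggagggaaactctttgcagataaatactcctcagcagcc
Cxcl9 (chr5:92328080-92328329, minus strand): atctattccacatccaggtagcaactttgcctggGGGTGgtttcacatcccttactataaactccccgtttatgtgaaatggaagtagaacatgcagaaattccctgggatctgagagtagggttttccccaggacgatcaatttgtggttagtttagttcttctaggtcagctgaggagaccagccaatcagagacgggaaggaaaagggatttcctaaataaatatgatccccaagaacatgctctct
Ccl1 (chr11:82179813-82180062, minus strand): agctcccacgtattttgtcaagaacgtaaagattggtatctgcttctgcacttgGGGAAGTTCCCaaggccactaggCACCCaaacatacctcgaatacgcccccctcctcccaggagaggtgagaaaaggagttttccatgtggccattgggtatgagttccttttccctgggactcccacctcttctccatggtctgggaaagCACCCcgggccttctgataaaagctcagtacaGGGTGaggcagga
Ccl3 (chr11:83649379-83649628, minus strand): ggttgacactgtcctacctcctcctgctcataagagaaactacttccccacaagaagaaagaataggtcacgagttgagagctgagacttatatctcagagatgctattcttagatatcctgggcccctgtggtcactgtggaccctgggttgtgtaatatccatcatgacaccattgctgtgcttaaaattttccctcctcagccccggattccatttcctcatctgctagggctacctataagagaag

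Counting the base before the start as -1, the Cxcl10 window held the interferon-stimulated element core at -213 to -204, an AP-1 site at -74 to -68 and kappaB matches at -159 to -150 and in an overlapping stretch from -104 to -94. The Cxcl9 window held 1 CACCC box, from -216 to -212, and none of the other letters searched. Cxcl2, with the start of its window at base 90903649 of chromosome 5, held an overlapping pair of kappaB matches between -97 and -87. Ccl1 held an overlapping pair of kappaB matches between -196 and -186 and 3 CACCC boxes, Xcl1 held 2 overlapping CACCC boxes, and Ccl3 held none of the 5 motifs. Over all 32851 promoter windows of this length, 2.98% held the interferon-stimulated element core, 7.02% the GAS element, 6.75% the AP-1 site, 52.0% a CACCC box and 7.25% a kappaB site. A match is a match of letters, and binding was not measured.

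The rest of the family was taken from a list of the 29 other mouse chemokine ligands, of which 15 were measured. For Klf4 over MigRI, 10 of the 15 were at least 2-fold higher as deposited and 2 were lower, with a median of 1.74 log2 against 0.79 over all measured genes, of which 43.7% and 10.3% were past 2-fold in these directions. Relative to the median gene 7 were higher and 2 were lower, against 21.4% and 23.6%. The loss experiment had 6 higher and 2 lower as deposited, with a median of 0.62 log2 against 0.74, where 38.4% of all measured genes were higher and 6.92% lower by that rule. After subtracting the median, 3 were higher and 4 were lower, against 12.4% and 16.2%. Cxcl1 (KC), the neutrophil attractant beside Cxcl2 in function, was at 75.6 TPM in MigRI, 899.6 TPM with Klf4, 16.8 TPM in Control (WT) and 119 TPM in the Klf4 cKO-labelled library. The ratio of Cxcl1 over Cxcl2 was 0.892 in MigRI, 1.59 with Klf4, 0.276 in Control (WT) and 1.50 in the Klf4 cKO-labelled library. Unlike Cxcl2, Cxcl1 was thus higher in the loss experiment also relative to the median gene, by 2.01 log2.

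Ccl7 (MCP-3), a monocyte attractant close to Ccl2 on the chromosome, was at 386, 733, 108 and 242 TPM in the order MigRI, Klf4, Control (WT) and Klf4 cKO. Ccl2 over Ccl7 was 2.23, 2.66, 1.31 and 1.55. Ccl12 (MCP-5) went the other way in the loss experiment, at 152 and 249 TPM in the gain experiment and 221 and 101 TPM in Control (WT) and the Klf4 cKO-labelled library. Ccl6, Ccl8 and Pf4, which are abundant in myeloid cells and platelets, were at 33.2, 22.3 and 29.8 TPM in MigRI and 113, 88.5 and 63.6 TPM with Klf4. They were at 8.33, 33.3 and 23.2 TPM in Control (WT) and 13.4, 41.3 and 12.6 TPM in the Klf4 cKO-labelled library. Ccl17 and Ccl27a, the 2 lower ligands of the gain experiment, are named after their values were seen and stayed below 20 TPM. Ccl17 was at 18.0 TPM in MigRI against 7.07 TPM with Klf4.

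Receptors for the members did not follow their ligands in a single direction. Cxcr6, which binds Cxcl16, was at 65.8 TPM in MigRI against 23.3 TPM with Klf4, and at 156 TPM in Control (WT) and 545 TPM in the Klf4 cKO-labelled library. Ccr8, the Ccl1 receptor, was at 76.8, 7.22, 38.8 and 144 TPM, and Cxcr3, which binds Cxcl9 and Cxcl10, at 15.8, 5.88, 8.43 and 36.3 TPM in the same order. These 3 were lower with Klf4 and higher in the Klf4 cKO-labelled library, as Trac, Trbc1 and Trbc2 were. Relative to the median gene their log2 differences were -2.25, -4.04 and -2.08 with Klf4, and 1.06, 1.13 and 1.25 in the loss experiment. Relative to the length class those of the loss experiment were 0.44, 0.51 and 0.63, below 2-fold. Their differences relative to the receptor constant genes were not taken. Ccr1 was at 3.26, 25.8, 1.76 and 6.87 TPM, higher in the second library of each pair. Ccr2 was at 4.02, 6.37, 8.30 and 21.6 TPM, and Xcr1 at 0.292, 0.565, 9.82 and 4.58 TPM. Cxcr2 was at 1.79 TPM with Klf4 and below 0.1 TPM elsewhere, Ccr3 and Ackr2 stayed below 0.5 TPM in every library, and Ackr1 was at 2.56 TPM in the Klf4 cKO-labelled library and listed at 0 in the other 3.

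Upstream of the interferon-induced ligands, 4 of 7 measured genes of interferon gamma signalling were at least 2-fold higher in each comparison as deposited and 0 were lower, where 43.7% and 38.4% of all measured genes were higher. Relative to the median gene, 2 were higher and 2 lower with Klf4, and 3 were higher and 1 lower in the Klf4 cKO-labelled library, against 21.4% and 23.6%, and 12.4% and 16.2%, of all measured genes. Irf1, a transcription factor induced by interferon, was at 48.0 TPM in MigRI, 687 TPM with Klf4, 15.8 TPM in Control (WT) and 70.9 TPM in the Klf4 cKO-labelled library. Cxcl10 over Irf1 was 3.36, 2.42, 1.24 and 2.97 in the same order. Ifng, the ligand, was at 931, 1970, 203 and 901 TPM. Relative to the median gene Ifng differed by 0.29 log2 with Klf4 and by 1.41 in the Klf4 cKO-labelled library. The 2 genes lower with Klf4 on that scale were Ifngr1 at -1.62 and Jak1 at -1.12. Jak1 was also the 1 lower in the Klf4 cKO-labelled library, at -1.68. Of 11 genes of TNF and NF-kB signalling, 6 were higher and 0 lower with Klf4, and 4 were higher and 0 lower in the Klf4 cKO-labelled library, as deposited. Relative to the median gene the counts were 4 and 0, and 2 and 1, to be read against the same shares. Tnf was at 13.6, 138, 5.38 and 26.1 TPM, its receptor Tnfrsf1a at 3.59, 50.7, 2.27 and 7.99 TPM, and Rela at 10.2, 70.5, 8.33 and 16.2 TPM. Among genes that process chemokines, Adam17 was at 2.04 TPM in MigRI against 10.1 TPM with Klf4, Adam10 at 2.16 and 4.23 TPM, and Dpp4, which trims Cxcl10, at 4.29 and 1.54 TPM. These 3 genes differed by at most 0.44 log2 between the libraries of the loss experiment.

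Markers of macrophages, stroma and mast cells had higher sums in the libraries in which Ccl2, Cxcl2, Cxcl9, Cxcl10 and Cxcl16 were higher as deposited, and neutrophil markers did so in the gain experiment alone. The 12 macrophage and monocyte markers summed to 997 TPM in MigRI, 5248 TPM with Klf4, 370 TPM in Control (WT) and 1232 TPM in the Klf4 cKO-labelled library. Of 11 measured, 11 were at least 2-fold higher with Klf4 as deposited, against 43.7% of all measured genes. After subtracting the median gene 10 were higher, against 21.4%. In the loss experiment 7 were higher as deposited and 5 after subtracting it, against 38.4% and 12.4%. By these measures 0 were lower in either experiment, where 6.92% to 23.6% of all measured genes were. Relative to the length class of their transcripts, 9 markers were higher and 0 lower with Klf4, against 18.5% and 19.3% of measured coding genes. In the Klf4 cKO-labelled library 0 were higher and 1 was lower, Fcgr3, against 7.90% and 11.5%. Lyz2 and Apoe were the highest with Klf4, at 1423 and 756 TPM, and none of the 12 was listed at 0 in any library. The 3 receptor constant genes summed to 20145, 5336, 2507 and 8707 TPM in the order MigRI, Klf4, Control (WT) and Klf4 cKO. The ratio of the macrophage sum to the receptor sum was thus 0.0495 in MigRI, 0.984 with Klf4, 0.148 in Control (WT) and 0.142 in the Klf4 cKO-labelled library. In bulk samples, fewer cells of a type and less RNA per cell cannot be told apart.

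Set against the macrophage sum, Cxcl16 was at 0.0307 in MigRI, 0.041 with Klf4, 0.0274 in Control (WT) and 0.0344 in the Klf4 cKO-labelled library, so the differences that Cxcl16 showed in TPM were small on this scale. Cxcl9 was at 0.00478, 0.00529, 0.0128 and 0.0141 on the same scale, near level within each experiment. Cxcl10 was at 0.162, 0.316, 0.0527 and 0.171, still higher in the second library of each pair. Ccl2 was at 0.865, 0.371, 0.382 and 0.305, and thus lower with Klf4. Cxcl2 was at 0.0850, 0.108, 0.165 and 0.0641. Against the receptor sum, Ccl3 was at 0.105 in MigRI and 0.269 with Klf4, and Ccl4 at 0.172 and 0.429, so both were higher with Klf4 on that scale. In the loss experiment Ccl3 was at 0.747 and 0.509 and Ccl4 at 4.78 and 0.895, both lower in the Klf4 cKO-labelled library.

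The 8 fibroblast and endothelium markers, led by Sparc and Dcn, summed to 134, 1269, 28.7 and 245 TPM in the order MigRI, Klf4, Control (WT) and Klf4 cKO. Of the endothelial ones, Pecam1 was at 1.46, 0.855, 1.77 and 1.96 TPM, and Cdh5 and Kdr were below 1 TPM in every library. Relative to the median gene, 5 of 6 measured were higher and 1, Pecam1, was lower with Klf4, against 21.4% and 23.6% of measured genes. In the loss experiment 2 were higher and 0 lower, against 12.4% and 16.2%. In the same order, the 7 mast cell markers summed to 1.91, 112, 0.278 and 93.6 TPM, and the 5 neutrophil markers to 28.6, 105, 29.3 and 3.37 TPM, the last being the lowest of the 4. The 4 B cell markers summed to 6.80, 23.7, 2.26 and 6.34 TPM. Of these, Ms4a1 was listed at 0 in all 4 libraries, while Cd79a was at 3.52, 20.6, 0.734 and 3.12 TPM and Cd79b between 1.52 and 3.29 TPM. The 7 dendritic cell markers summed to 288, 133, 24.9 and 127 TPM, and so were lower in sum with Klf4. Most of that sum was Ccr7, at 286, 125, 21.7 and 121 TPM, while Itgax was at 0.286, 2.16, 1.48 and 1.77 TPM. The part of macrophage, stromal, mast cell and neutrophil RNA in the levels of Ccl2, Cxcl2, Cxcl9, Cxcl10 and Cxcl16 was not tested.

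The median difference of measured coding genes also varied with transcript length. The part of length in the differences of the members was not tested. The principal transcripts of the T cell chemokines were 514 to 766 nt long, that of Ccl2 813 nt, those of Cxcl10 and Cxcl2 1094 and 1109 nt, and those of Cxcl16 and Cxcl9 2699 and 2889 nt. Measured coding genes under 1000 nt had a median difference of -0.65 log2 for Klf4 over MigRI, whereas the classes from 1000 to under 2000, from 2000 to under 4000 and of 4000 nt or more had medians of 0.90, 1.36 and 0.83. Those under 1000 nt took 44.2% of all TPM in MigRI, 23.8% with Klf4, 62.8% in Control (WT) and 46.0% in the Klf4 cKO-labelled library. The median of the class under 1000 nt in the loss experiment was -0.038 log2, and those of the longer classes were 1.36, 0.83 and 0.54.

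Relative to their own length class, Ccl3, Ccl4 and Ccl5 differed by 0.099, 0.056 and 0.083 log2 for Klf4 over MigRI, so these 3 were level with other short transcripts. Xcl1 and Ccl1 were at -0.90 and -1.47, Ccl2 at 1.83, Cxcl2 at 1.82, Cxcl9 at 0.96, Cxcl10 at 2.45 and Cxcl16 at 1.41. By this measure 4 members were at least 2-fold higher and 1 was lower, against 18.5% and 19.3% of measured coding genes. In the loss experiment 4 were higher and 1 was lower, against 7.90% and 11.5%. The 4 were Ccl2, Ccl3, Cxcl10 and Cxcl16, at 1.44, 1.28, 2.00 and 1.13, and the lower gene was Ccl1 at -1.33. Ccl2 and Ccl3 have principal transcripts of like length, 813 and 766 nt, and Ccl2 over Ccl3 was 0.409 in MigRI and 1.36 with Klf4, and 0.0755 in Control (WT) and 0.0849 in the Klf4 cKO-labelled library.

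**Figure D5:**
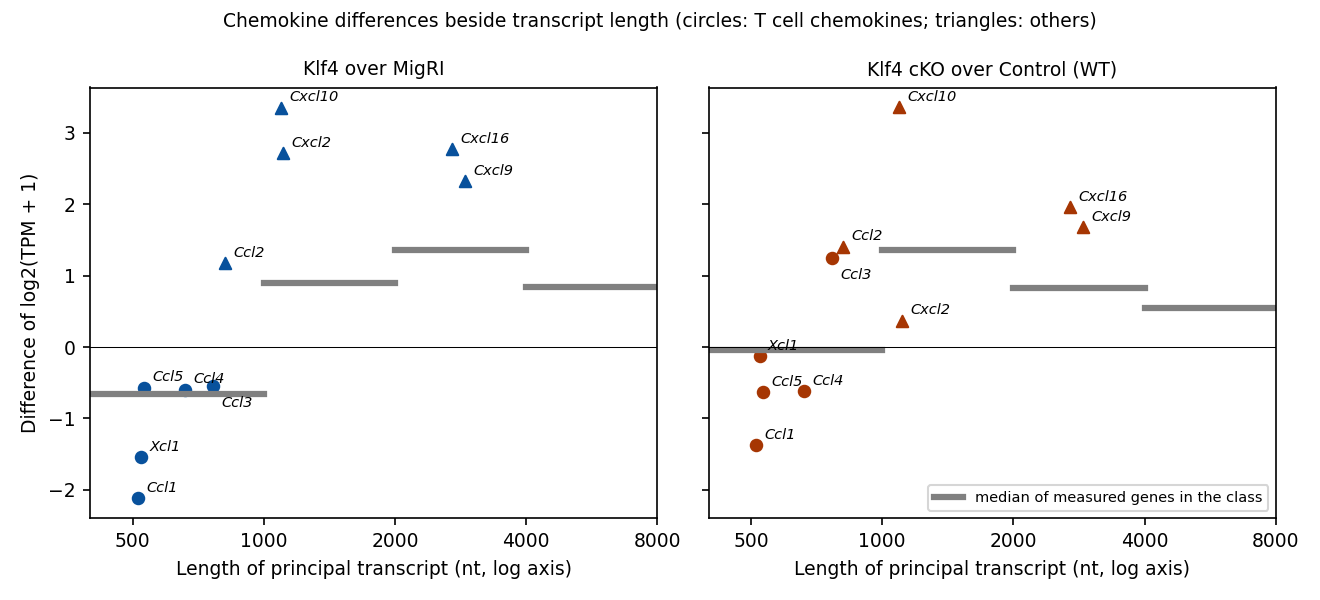
Difference of log2(TPM + 1) against the length of the principal transcript (nt, log axis) for the T cell chemokines (circles) and the other members (triangles), with grey bars at the median of measured coding genes in 4 length classes. In the left panel Ccl3, Ccl4 and Ccl5 lie on the bar of the class under 1000 nt at -0.65, and Cxcl10 at 3.35 lies above the bar of its class at 0.90.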

How the data were processed

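Per the labels' protocols, RNA came from a TRI Reagent extraction and cDNA libraries from the SMART-seq v4 kit for low input. Trimmomatic, HISAT2, StringTie, edgeR and the build mm10 are named in the submitters' processing notes. The sources used here do not give their versions, their roles or the annotation. The authors deposited TPM per gene, with 45777 entries for each library. Calendar dates stood in place of 26 symbols in the Control (WT) file, and the 4 genes with ambiguous dates were left out.

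Differences of log2(TPM + 1) were computed within each experiment with pandas 2.3.3 in Python 3.11.15, with a pseudocount of 1 and genes called measured at a mean of at least 1 TPM. The code was tested on simulated data. Positions and principal transcript lengths came from GENCODE vM21 on mm10 (a length for 80.6% of measured genes, 85 of them matched through RefSeq synonyms), and promoters from RefSeq. Named genes were the members, other ligands at 20 TPM or more, every listed receptor, up to 4 genes per pathway list, the leading markers, and the 3 genes nearest to each member, and a few of these are not reported here. Members, lists and rules were chosen with earlier results of these data known. Alternatives changed pseudocount, filter, scaling and reference genes, and the length classes were added after seeing the data.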

Additional observations from a re-analysis of the deposited data

How the results depend on the processing

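Pseudocounts of 0.1 and 5, either filter, and rescaling after removing the 50 most abundant genes (chemokines kept) or the receptor segments, ribosomal proteins and mitochondrial genes left each member's direction and side of 2-fold as it was in both comparisons. Scaling did not. All counts that follow are of genes at least 2-fold apart, with those as deposited first. Shares over all measured genes were counted only as deposited, relative to the median gene and relative to the length class. On other scales the counts thus have no such share beside them, and do not set the chemokines apart from other genes. Under median of ratios scaling, members lower with Klf4 went from 2 to 5, members higher in the Klf4 cKO-labelled library from 5 to 2 and lower from 1 to 4, and other ligands with Klf4 from 12 to 6, of them higher from 10 to 4. Under quantile normalization, members apart in the loss experiment went from 6 to 3, higher from 5 to 3 and lower from 1 to 0, and other ligands higher with Klf4 from 10 to 6. Relative to the median gene, members lower with Klf4 went from 2 to 5, and in the loss experiment members higher from 5 to 2, members lower from 1 to 3, other ligands higher from 6 to 3 and lower from 2 to 4.

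Relative to Trac, Trbc1 and Trbc2, which were lower with Klf4 and higher in the Klf4 cKO-labelled library, members higher with Klf4 went from 5 to 8 and lower from 2 to 0, and other ligands lower from 2 to 0. In the loss experiment, members higher went from 5 to 1 and lower from 1 to 5, other ligands higher from 6 to 1 and lower from 2 to 9. The share of all measured genes past 2-fold relative to the receptor constant genes was not counted. On that scale 4 differences of at least 2-fold changed sign: Xcl1 with Klf4 to 0.47 log2, and in the Klf4 cKO-labelled library Ccl3 to -0.52, Ccl2 to -0.35 and Cxcl9 to -0.076. Relative to the length class, members lower with Klf4 went from 2 to 1 and other ligands from 12 to 7, of them higher from 10 to 6 and lower from 2 to 1. For other ligands, a mean of at least 10 TPM gave 5 with Klf4, 5 higher and 0 lower, and 4 in the loss experiment, 3 higher and 1 lower, as fewer genes were left. A pseudocount of 0.1 gave 4 lower in the loss experiment and a pseudocount of 5 gave 1 lower with Klf4.

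Over all the alternatives run, Cxcl10 was higher by at least 1.60 log2 in both comparisons, and Ccl1 was lower, at -3.11 to -0.10 log2 with Klf4 and at -3.13 to -0.98 log2 in the Klf4 cKO-labelled library. The T cell share of the members was lower by 36.7 percentage points with Klf4 and by 3.04 in the Klf4 cKO-labelled library, and it was lower also over all 39 ligands and without Ccl5. No paired analysis was possible because each group held 1 library. Leaving out a library was not possible for the same reason, and the depth that would limit low genes such as Cxcl9 is unknown.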
